A study of Mus musculus with 2 samples.

Results

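Marrow monocytes were taken as the barcodes of 2 mouse bone marrow single-cell libraries that carried 3 or more unique molecular identifiers (UMIs, single counted transcripts) of Csf1r, F13a1 and Ccr2 together. Barcodes needed at least 200 genes and at most 10% mitochondrial UMIs. They were left out with more than 2 UMIs of the C1q genes, more than 2 of Pf4 and Ppbp, any Siglech UMI, more than 1 UMI of Cd79a and Cd79b or of Cd3e, Cd3d and Cd3g, 1% or more of UMIs from Mpo, Elane, Prtn3 and Ctsg, or 5% or more from hemoglobin. The rule found 673 monocytes among 12259 cells. Members were thus chosen by their counts of these genes, whose levels are given as a description only. One library came from mice with the genotype label Apoe(-/-), Itgb3(-/-), here the null-labelled library, and 1 from mice labelled Apoe(-/-), Itgb3(+/+), here the control-labelled library. Both were of the C57BL/6 strain, aged 6 months, labelled with atherosclerosis, and made from bone marrow with 10x Genomics 3′ chemistry. Both labels thus give Apoe(-/-), where Apoe is an apolipoprotein that clears lipoprotein remnants, and the groups differed by label in Itgb3, which encodes integrin β3. How many animals each library pools is not stated in the labels.

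Monocytes are made in the marrow from granulocyte-monocyte progenitors and leave it through the chemokine receptor Ccr2. Classical monocytes carry Ly6c2 and Ccr2, enter inflamed tissue and give rise to macrophages, including those of the atherosclerotic plaque. Nonclassical monocytes carry Cx3cr1, Ace and Treml4 and patrol the vessel wall. Interferons, bacterial products and cytokines such as interleukin 1 each switch on a characteristic set of genes in monocytes, and integrin β3 paired with integrin αv binds vitronectin and other matrix proteins.

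The null-labelled library held 99 monocytes with 1924547 UMIs, and the control-labelled library held 574 with 5404791 UMIs. Depth per cell differed, with a median of 14499 UMIs and 3403 genes per null-labelled monocyte against 7379 UMIs and 2483.5 genes per control-labelled monocyte. With 1 library per genotype there are no replicates, so every difference below is between 2 libraries, no p-value is given, and 95% intervals cover counting error only. Levels are CPM, the UMIs of a gene per 1000000 UMIs of the monocytes of that library. Of the 11 barcodes that both libraries shared, 3 belonged to a monocyte and 0 to a monocyte in both libraries.

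The label was checked on genes the rule did not use. Ly6c2, the classical monocyte antigen, was detected in 86 of 99 null-labelled and 513 of 574 control-labelled members, and Ms4a6c, a membrane protein of monocytes, in 90 and 535. All 28 monocyte markers looked for were detected in both libraries, at a summed level of 15881 CPM and 34888 CPM in null-labelled and control-labelled members. These 28 include the rule genes Csf1r, F13a1 and Ccr2, whose joint detection was fixed in advance and whose UMIs enter the sums. Some members, however, carried genes of other cell types. When the members were clustered within each library, control-labelled cluster 6 (30 cells) was led by Ccl5, Gzma, Nkg7 and Klrd1, genes of natural killer and cytotoxic lymphocytes, and held 0 UMIs of Csf1r and F13a1. Control-labelled cluster 7 (19 cells) was led by Camp, Ngp and Ltf, granule genes of neutrophils. Its cells also carried monocyte markers, with Csf1r, Ly6c2 and Ms4a6c each in 18 of 19. Null-labelled cluster 2 (19 cells) was led by Ctla2a, Ifitm1, Gimap5 and Il2rb. Null-labelled cluster 3 (19 cells) was led by Ngp, S100a9 and Camp together with the division genes Cenpf and Ube2c. Of its 19 cells, 19 also held Ly6c2, 18 held Ms4a6c and 17 held F13a1. Whether these clusters held mixed barcodes was not tested cluster by cluster. In all, 11 null-labelled and 44 control-labelled members reached 3 UMIs through Ccr2 alone. The map of levels by cluster shows where these cells lie.

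**Figure D1:**
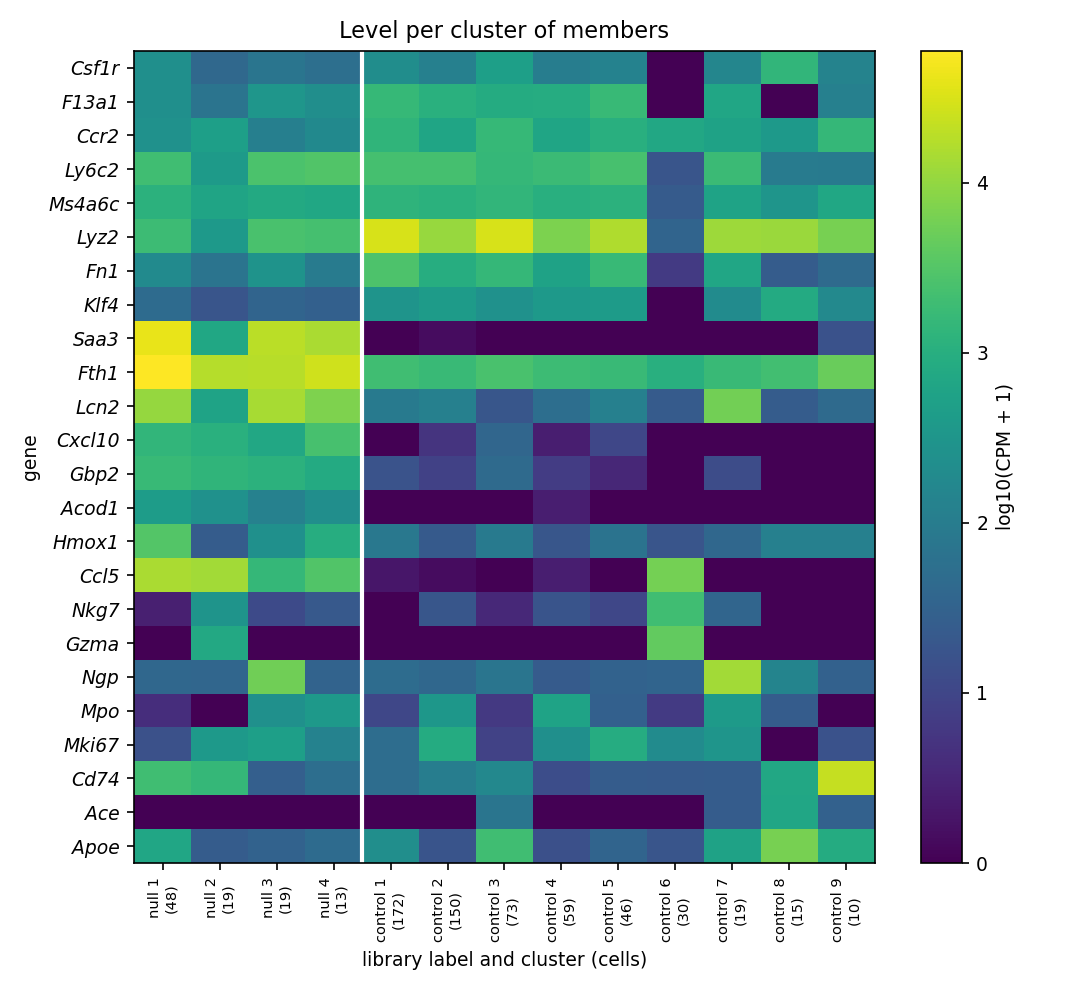
Level of 24 genes (rows) in each cluster of members (columns, with the number of cells), as log10(CPM + 1), for 4 clusters of the null-labelled and 9 of the control-labelled library. Control-labelled cluster 6 holds Nkg7 and Gzma without Csf1r or F13a1, Ngp is highest in null-labelled cluster 3 and control-labelled cluster 7, and Saa3, Fth1, Cxcl10 and Acod1 are high in null-labelled clusters, with Saa3 lowest there in cluster 2.

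For this reason each result was also computed in a narrowed set, chosen after the data were seen. Its cells had 3 or more of the 5 monocyte markers (Csf1r, F13a1, Ccr2, Ly6c2 and Ms4a6c) detected. They also had under 5% of UMIs from 7 neutrophil genes, S100a8, S100a9, Ngp, Camp, Ltf, Lcn2 and Retnlg. Levels of these selecting genes in the narrowed set are a description only. The narrowed set kept 79 null-labelled and 504 control-labelled monocytes. In it the 7 T and natural killer cell markers summed to 9.70 and 13.1 CPM, against 186 and 241 CPM in all members, and Cd3e, Cd3g, Klrb1c and Gzma were at 0 in both libraries. The basophil and mast cell markers summed to 0.646 and 125 CPM in it, so that basophil-type transcripts remained on the control-labelled side. The 11 neutrophil markers summed to 11707 and 1764 CPM in the null-labelled and control-labelled narrowed set, sums that its own cut on 7 of them limited. Of these markers, Lcn2 is described below. Of the 8 macrophage markers, 6 and 7 were detected at summed levels of 83.4 and 58.0 CPM, with Cd5l at 0 in both. In all members the plasmacytoid dendritic markers summed to 647 and 226 CPM, with Siglech, which the rule excludes, at 0 in both. The B cell markers summed to 12.5 and 15.2 CPM, the erythroid markers to 799 and 1891, and the platelet markers to 10.4 and 19.2. The eosinophil markers summed to 0.520 and 1.48 CPM, and the basophil and mast cell markers to 168 and 117 CPM. The rule itself caps Cd79a, Cd79b, the Cd3 genes, the C1q genes, Pf4, Ppbp and hemoglobin. Marker sums of B, T, macrophage, platelet and erythroid cells were limited in advance so far as they include these genes, and are a description only. The part of these other cell types in the results was not tested beyond the values of the narrowed set, which are given wherever they moved a ratio by more than 1.5 times.

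Itgb3, the gene named in the genotype (ENSMUSG00000020689, chromosome 11 from 104608000 to 104670476, mm10), gave 1 UMI in 1 of 99 null-labelled monocytes and 63 UMIs in 58 of 574 control-labelled monocytes. The ratio of 0.0446 (0.00111 to 0.258) rests on that single null-labelled UMI. In the narrowed set the counts were 0 and 58 UMIs, at least 6.13-fold lower against a floor of 3 UMIs in the null-labelled monocytes. After thinning each cell to 2000 UMIs, 17 of 567 control-labelled monocytes held an Itgb3 UMI, a share near the 2.56% of control-labelled B cells, and 0 of 99 null-labelled monocytes did, while 7 of 567 null-labelled B cells (1.23%) held one. The deleted stretch is unknown from the labels, and reads from 3′ ends outside a deleted stretch check nothing. Itgav, the αv partner, was at 16.6 and 18.5 CPM in the null-labelled and control-labelled monocytes, with a ratio of 0.899 (0.584 to 1.35). Apoe transcripts were present in both libraries, at 244 and 287 CPM, which likewise does not check the Apoe label. They were highest in null-labelled cluster 1, at 669 CPM, and control-labelled cluster 8, at 6314 CPM.

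Monocytes made up 3.33% of null-labelled cells (99 of 2974, 2.71 to 4.04, exact Clopper-Pearson interval) and 6.18% of control-labelled cells (574 of 9285, 5.70 to 6.69), a ratio of 0.538 (0.437 to 0.664). The share follows from the rule and is a description. It moved with depth: with every barcode thinned to 2000 UMIs before the rule was applied, 23 of 2847 and 461 of 7914 cells were members, a ratio of 0.139, and among cells of 3000 to 10000 UMIs, an alternative added after seeing the data, 16 of 1415 and 347 of 4571 were members, a ratio of 0.149 (0.0906 to 0.245). The 3 genes that admit a cell were themselves lower in the null-labelled members, Ccr2 at 233 and 890.1 CPM, F13a1, a coagulation factor subunit, at 234 and 1109 CPM, and Csf1r, the receptor that sustains monocytes, at 118 and 172 CPM. A monocyte with less of these transcripts is counted less often, and the part of this in the share was not tested. Near the threshold, 13 null-labelled and 26 control-labelled members had exactly 3 UMIs of the 3 genes. Of those, 76.9% and 15.4% held a Ly6c2 UMI, and of the 14 and 31 cells with 2 UMIs that passed every other limit, 78.6% and 25.8% did.

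The transcript profile was compared over 3458 genes, those that reached 50 CPM in 1 or both libraries and 30 UMIs in the sum. By size, 451 genes (13%) were 2-fold or more higher and 521 (15.1%) were 2-fold or more lower in the null-labelled monocytes. Each count of list members below stands beside these shares of all genes. 101 genes were 10-fold or more higher and 23 were 10-fold or more lower. In the narrowed set 477 and 583 of 3491 genes passed 2-fold, of which 426 and 494 also passed among all members. The median log2 ratio of all genes tested was -0.16, and with TMM scaling, which balances composition between libraries, it was -0.01, with 528 genes higher and 423 lower.

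**Figure D2:**
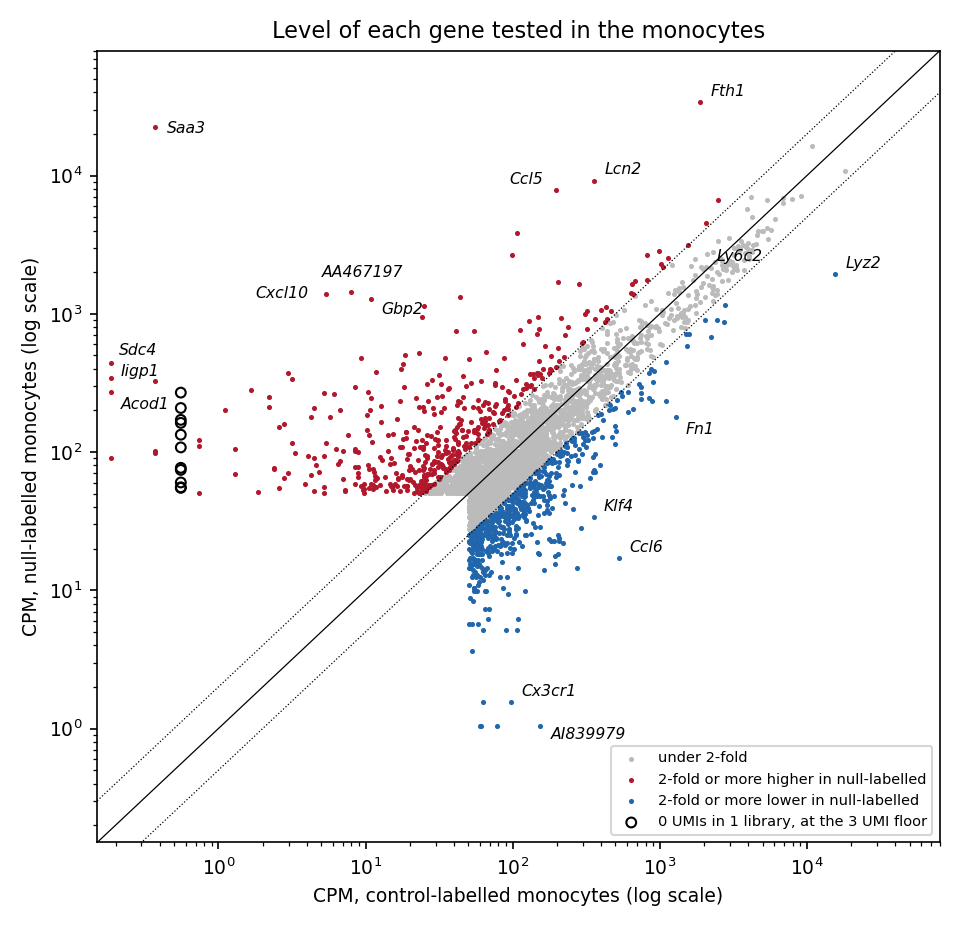
Level of each of the 3458 genes tested in control-labelled (x axis) and null-labelled monocytes (y axis), in CPM on log scales, with equality (solid line) and 2-fold (dotted lines) marked and open circles for genes with 0 UMIs in the control-labelled monocytes, drawn at 3 UMIs. Saa3 lies at 22648 against 0.370 CPM, Fth1 at 33808 against 1878 CPM, and Lyz2 at 1931 against 15641 CPM, while Ly6c2 lies on the line of equality.

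Acute-phase and iron genes held the highest levels that differed. Saa3, a serum amyloid A protein that macrophages make in inflammation (ENSMUSG00000040026, chromosome 7 from 46711998 to 46715700 on the minus strand), had 43588 UMIs in 85 of 99 null-labelled monocytes and 2 UMIs in 2 of 574 control-labelled monocytes. Its level was 22648 CPM against 0.370 CPM, a ratio of 61205 (16942 to 505406) that rests on 2 control-labelled UMIs. In the narrowed set the UMIs were 40987 and 1, a ratio of 129356 (23216 to 5109390.0). No single cell carried the signal, since the highest null-labelled monocyte held 6.17% of the Saa3 UMIs. Among null-labelled clusters Saa3 ran from 701 CPM in cluster 2, the one led by Ctla2a and Il2rb, to 41336 CPM in cluster 1. After thinning, 80.8% of null-labelled monocytes held a Saa3 UMI (71.7 to 88.0) and 3.35% of null-labelled B cells did (2.03 to 5.18), at unthinned median depths of 14499 and 5268.5 UMIs. In control-labelled monocytes it was 0 of 567, which by a limit of 3 counts allows a share of cells with a UMI of up to 0.529% (exact upper bound 0.648%).

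Fth1, the ferritin heavy chain that stores iron (ENSMUSG00000024661, chromosome 19 from 9980598 to 9985098 on the plus strand), was at 33808 and 1878 CPM, 18.0-fold higher (17.6 to 18.4). The light chain, Ftl1, differed by less, at 7033 and 4169 CPM, 1.69-fold. Lcn2, lipocalin 2, which binds bacterial iron carriers, was at 9195 and 357 CPM, 25.8-fold higher (24.6 to 27.0), and 104-fold higher in the narrowed set. Lcn2 is among the 7 neutrophil genes that the narrowed set was cut on, so the narrowed value is a description only. Control-labelled cluster 7, the one led by neutrophil granule genes, held 1454 of the 1928 control-labelled Lcn2 UMIs. Hmox1, the heme-degrading enzyme, was 30.03-fold higher (26.3 to 34.4), though 1 cell held 16.1% of its null-labelled UMIs and 63 of 99 cells held any. Over the iron and heme list 3 of 6 tested members were 2-fold higher and 0 lower, with a median log2 ratio of 0.93. After thinning, the null-labelled monocytes had a median of 62 Fth1, 31 Saa3 and 13 Lcn2 UMIs per cell of 2000, against 3, 0 and 0 in the control-labelled monocytes.

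**Figure D3:**
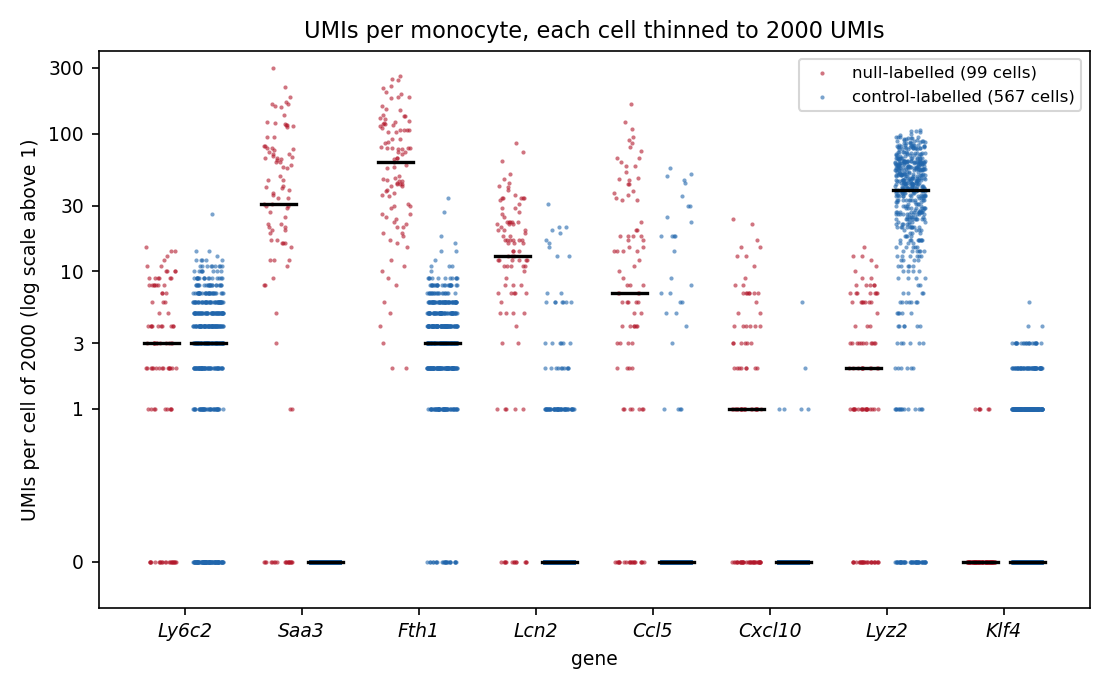
UMIs of 8 genes in each monocyte (points) after each cell was thinned to 2000 UMIs, for 99 null-labelled and 567 control-labelled cells, with the median as a black bar and the y axis logarithmic above 1. The median of Ly6c2 is 3 in both libraries, that of Fth1 is 62 against 3, that of Saa3 31 against 0, and that of Lyz2 2 against 39.

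Genes of the interferon response stood higher in null-labelled monocytes almost throughout the list. Of 26 tested members, 23 were 2-fold or more higher, beside 13% of all genes, and 0 were lower, with a median log2 ratio of 2.75 beside -0.16 for all genes. Rsad2, viperin, an antiviral enzyme, was at 476 and 9.25 CPM, 51.4-fold higher (38.7 to 69.8). Ifit1, which binds foreign RNA, was at 266 and 5.18 CPM, 51.4-fold higher (35.1 to 78.1). Isg15, a ubiquitin-like protein, was at 951 and 24.2 CPM and 39.2-fold higher. Such genes were detected in most null-labelled cells, for example Rsad2 in 78 of 99 against 28 of 574. The most abundant member, Ifitm3, which blocks virus entry, was already high in the control-labelled monocytes, at 6695 and 2481 CPM, and differed by only 2.70-fold. Ifi27l2a, Trim30a and Cmpk2 did not reach 2-fold, with Ifi27l2a at 746 and 830.2 CPM. After thinning, 98.0% of null-labelled monocytes held 3 or more UMIs of the list, with a median of 32 UMIs, against 82.2% and a median of 9 in the control-labelled monocytes.

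The guanylate-binding proteins and immunity-related GTPases, which attack the membranes around intracellular microbes, were 2-fold or more higher in 10 of 10 tested members, with a median log2 ratio of 4.46. Gbp2 was at 1281 and 10.9 CPM, 117-fold higher (90.6 to 155), and was detected in 95 of 99 against 47 of 574 monocytes. Iigp1, a GTPase of the same defence, had 657 UMIs in 84 null-labelled cells and 1 UMI among the control-labelled ones, a ratio of 1845 with a counting interval from 330.0 to 72986. Ifi47 was 13.8-fold higher (11.7 to 16.2). In contrast to the wider interferon list, this family was nearly silent in the control-labelled monocytes, where 2.82% of thinned cells held 3 or more of its UMIs against 88.9% of null-labelled cells. B cells of the same libraries gave 2.25% and 81.3%, so the difference was not limited to monocytes.

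The promoters of 4 of these genes are shown because their transcripts were among the most different and each carries the interferon-stimulated response element, the sequence bound by interferon-activated factors. They are the 250 bases before the RefSeq start (build GRCm38.p6), 5′ to 3′ on the strand of the gene, with the motif GAAANNGAAA or its reverse complement in capitals.
Cxcl10: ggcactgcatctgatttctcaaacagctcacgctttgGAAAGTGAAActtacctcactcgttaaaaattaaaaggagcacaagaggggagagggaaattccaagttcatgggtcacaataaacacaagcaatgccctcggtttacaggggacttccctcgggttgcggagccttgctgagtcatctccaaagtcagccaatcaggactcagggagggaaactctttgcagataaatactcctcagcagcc
Gbp2: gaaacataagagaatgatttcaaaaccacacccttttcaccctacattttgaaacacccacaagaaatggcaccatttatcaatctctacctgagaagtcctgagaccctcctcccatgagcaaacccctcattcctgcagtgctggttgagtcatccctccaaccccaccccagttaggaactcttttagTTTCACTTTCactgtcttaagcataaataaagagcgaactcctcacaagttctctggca
Rsad2: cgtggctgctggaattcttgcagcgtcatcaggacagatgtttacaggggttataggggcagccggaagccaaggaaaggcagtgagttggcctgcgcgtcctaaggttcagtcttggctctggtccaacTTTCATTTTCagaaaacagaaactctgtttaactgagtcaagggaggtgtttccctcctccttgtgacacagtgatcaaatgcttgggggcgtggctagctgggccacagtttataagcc
Ifit1: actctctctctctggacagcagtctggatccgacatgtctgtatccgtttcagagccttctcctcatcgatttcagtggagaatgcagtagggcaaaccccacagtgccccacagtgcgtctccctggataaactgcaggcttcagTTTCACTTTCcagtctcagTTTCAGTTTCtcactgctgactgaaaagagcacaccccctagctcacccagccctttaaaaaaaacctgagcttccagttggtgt
The windows lie at chr5:92348890-92349139 on the minus strand for Cxcl10, chr3:142620413-142620662 on the plus strand for Gbp2, chr12:26456453-26456702 on the minus strand for Rsad2 and chr19:34640639-34640888 on the plus strand for Ifit1. The motif begins 213 bases before the start of Cxcl10, 59 before Gbp2 and 120 before Rsad2, while Ifit1 has 2 copies, the first 104 bases before its start. Searched on both strands of windows from 250 bases before to 50 after the start, the motif was found in 10 of 11 promoters of the guanylate-binding and immunity-related GTPases that had an entry (90.9%) and in 13 of 20 of the interferon-response list (65.0%). It was present in 13.4% of 359 genes that were 2-fold higher, in 4.43% of 406 that were 2-fold lower, in 5.48% of 2775 genes tested and in 3.44% of all 32851 windows. The related interferon-gamma element, TTCNNNGAA, was in 6 of 11 GTPase promoters and in 4 of 20 of the interferon-response list. It was in 10.9% of the genes 2-fold higher, 8.87% of those lower, 8.29% of genes tested and 8.30% of all windows. The kappaB motif, bound by NF-kB, was in 13.1% of the genes 2-fold higher, 5.17% of those lower, 6.45% of genes tested and 4.51% of all windows. A match describes the letters only.

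Antigen presentation followed in part. Of 15 tested genes of MHC class I and peptide loading, 12 were 2-fold higher and 0 lower, with a median log2 ratio of 1.52. B2m, the shared light chain of class I, was at 2857 and 993 CPM, 2.88-fold higher (2.77 to 2.99), and was detected in 99 of 99 and 571 of 574 cells. The nonclassical genes H2-Q4 and H2-Q6 were further apart, H2-Q6 at 82.6 and 6.48 CPM, and 51.4-fold higher in the narrowed set, but these near-identical copies can share reads and their values are uncertain. For MHC class II, 4 of 6 members passed 2-fold, with Cd74, the invariant chain, at 921 and 364 CPM, and 0 were 2-fold lower. That count rested on few cells: H2-Aa was detected in 13 null-labelled and 19 control-labelled monocytes, 1 null-labelled cell held 36.4% of the H2-Ab1 UMIs, and 2 of 6 passed in the narrowed set. Control-labelled cluster 9 (10 cells) held Cd74 at 23081 CPM, against 78.3 CPM in the other control-labelled members. H2-Ab1 was at 9611 CPM there, against 21.0 CPM in the others. In null-labelled cluster 1 H2-Ab1 was at 741 CPM, against 59.0 CPM in the other null-labelled members. H2-DMa, which loads peptides onto class II, was at 108 and 181 CPM, a ratio of 0.597.

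Among chemokines, the attractants of other leukocytes were higher and 2 were lower. Of 10 tested, 7 were 2-fold higher and 2 lower. Cxcl10, which attracts activated T cells, was at 1389.9 and 5.37 CPM, 259-fold higher (179.9 to 388), in 84 of 99 against 14 of 574 cells. Ccl5, another T cell attractant, was at 7882 and 196 CPM, 40.3-fold higher (37.8 to 42.9). Nearly all control-labelled Ccl5 came from cluster 6, the cytotoxic-type cells, at 5918 CPM, and in the narrowed set the levels were 6698 and 0.410 CPM, a ratio of 16349.7 (4525 to 135023). Ccl12, a ligand of Ccr2, had 401 UMIs against 0 and was at least 375-fold higher, against a floor of 3 UMIs in the control-labelled monocytes. In the opposite direction, Ccl6, a constitutive chemokine of myeloid cells (chromosome 11 from 83587882 to 83593087), was at 17.1 and 529.5 CPM, 30.9-fold lower (21.9 to 45.0), and its neighbour Ccl9 was at 114 and 302 CPM, 2.65-fold lower (2.30 to 3.07).

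Receptors for these and other signals split. Of 7 tested genes of chemokine receptors and trafficking, 3 were 2-fold higher and 3 lower. Fpr2, a receptor for formyl peptides and for serum amyloid A, was at 436 and 17.9 CPM, 24.3-fold higher (19.7 to 30.3), and 40.6-fold in the narrowed set. Cx3cr1, the fractalkine receptor (chromosome 9 from 119901616 to 120069879), had 3 UMIs in 3 null-labelled and 523 UMIs in 260 control-labelled monocytes, a ratio of 0.0161 (0.00331 to 0.0473). Members with Cx3cr1 were thus not limited to the nonclassical-like control-labelled cluster 8 (15 cells) described below. Selplg, the selectin ligand, was 2.65-fold lower (2.31 to 3.05). Over cytokine receptors 2 of 12 were 2-fold higher and 4 lower, beside 13% and 15.1% of all genes. Il1r2, a decoy receptor for interleukin 1, was at 283 and 1.67 CPM, 170.1-fold higher (88.9 to 374), and 679-fold in the narrowed set, while Il6st, the shared chain of interleukin 6 receptors, was at 11.4 and 59.2 CPM, 5.18-fold lower (3.36 to 8.38), and Il17ra 3.63-fold lower (2.93 to 4.53).

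Cytokine and NF-kB target genes were higher as a group, with 13 of 15 tested members 2-fold higher, beside 13% of all genes, 0 lower and a median log2 ratio of 4.76. Sod2, the mitochondrial superoxide dismutase, was at 2685 and 99.2 CPM, 27.1-fold higher (24.8 to 29.7), and Nfkbia, the inhibitor that ends NF-kB signalling, at 881 and 129.7 CPM, 6.79-fold higher (6.21 to 7.43). Acod1, which makes itaconate, had 524 UMIs in 77 null-labelled cells and 1 UMI in the control-labelled monocytes, a ratio of 1472 (263 to 58234), and in the narrowed set it was at least 491-fold higher against a floor of 3 UMIs. Nos2, inducible nitric oxide synthase, had 313 UMIs in 46 of 99 cells against 0 of 574 and was at least 293-fold higher, against a floor of 3 UMIs. Il1b, interleukin 1 beta, was low in both, at 76.4 and 2.41 CPM, and 1 cell held 29.3% of its null-labelled UMIs. Nfkb1, a subunit of the factor itself, was at 88.3 and 151 CPM, a ratio of 0.587. After thinning, 94.9% of null-labelled and 18.9% of control-labelled monocytes held 3 or more UMIs of the list. B cells of the same libraries gave 36.2% and 34.7%.

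Sensors and surface regulators were counted next to the same background, 13% of genes higher and 15.1% lower. Of 5 tested pattern recognition receptors, 3 were 2-fold higher and 0 lower: the C-type lectins Clec4e and Clec4d, which sense damaged cells and mycobacterial lipids, and Cd14, the coreceptor for lipopolysaccharide. Clec4e was at 235 and 17.0 CPM, 13.8-fold higher (11.03 to 17.5), and Cd14 at 139.8 and 18.9 CPM, 7.41-fold higher (5.88 to 9.40). Of 10 Fc receptor and complement genes, 5 were 2-fold higher and 0 lower, led by Cfb, complement factor B, with 197 against 2 UMIs, a ratio of 277 (75.6 to 2300.1), and Fcgr4, at 271 and 10.4 CPM, 26.2-fold higher (19.8 to 35.1), and 53.3-fold in the narrowed set. Of 8 checkpoint and costimulatory ligands 3 were higher and 2, Sirpa and Vsir, were lower, the latter both within 2-fold in the narrowed set. Cd274, which encodes PD-L1, was at 249 and 2.22 CPM, 112-fold higher (63.7 to 219), in 82 of 99 against 9 of 574 cells, and 187-fold higher in the narrowed set. Interferon receptors and signalling genes had 9 of 16 members higher and 2 lower: Irf7 was 18.0-fold higher (15.6 to 20.8) and the feedback inhibitor Socs3 36.8-fold higher (22.5 to 64.4), whereas Ifngr1, the interferon-gamma receptor, was 2.06-fold lower (1.80 to 2.38) and the kinase Tyk2 2.71-fold lower (1.94 to 3.89).

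Other genes with the highest ratios stood outside these lists. Sdc4, a heparan sulfate proteoglycan that helps integrins adhere, had 850 UMIs in 79 of 99 null-labelled monocytes and 1 UMI in the control-labelled ones, a ratio of 2387 (427 to 94395), and was at least 829-fold higher in the narrowed set, which held 0 control-labelled UMIs. AA467197 was at 1438 and 7.96 CPM, 181-fold higher (134 to 250.4). Upp1, uridine phosphorylase, had 624 against 2 UMIs, and Timp1, a metalloproteinase inhibitor, 208 UMIs in 42 cells against 0, at least 195-fold higher against the floor. Il17a and Il17f, T cell cytokines, were also in this group, but their 257 and 518 UMIs came from 1 null-labelled cell, which the narrowed set left out. U90926 came from 5 cells, with 56.5% of its UMIs in 1.

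The lower genes included several that define monocytes. Lyz2, lysozyme, the gene most used to mark myeloid cells (ENSMUSG00000069516, chromosome 10 from 117277331 to 117282321 on the plus strand), was at 1931 and 15641 CPM, 8.10-fold lower (7.84 to 8.37). It was detected in 84 of 99 and 540 of 574 cells, at a thinned median of 2 against 39 UMIs per cell. Fn1, fibronectin, was at 179 and 1281 CPM, 7.15-fold lower (6.41 to 7.99). Klf4, a transcription factor needed for monocyte development (chromosome 4 from 55527143 to 55532466 on the minus strand), was at 33.8 and 355 CPM, 10.5-fold lower (8.20 to 13.7), and was detected in 34 of 99 against 450 of 574 cells. AI839979 had 2 null-labelled against 832 control-labelled UMIs, a ratio of 0.00675 (8.16e-04 to 0.0245), and Ppfia4, Klrb1f and Cd300lg had 2 UMIs each against 425, 327 and 323. Cbfa2t3, a transcriptional corepressor, was 17.5-fold lower (9.93 to 34.0), with 75.0% of its 12 null-labelled UMIs in 1 cell, and 84.9-fold lower in the narrowed set.

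The classical monocyte list had a median near 0, with 5 of 14 tested members 2-fold higher, 3 lower and a median log2 ratio of -0.02. Ly6c2 was at 2178 and 2070.4 CPM, a ratio of 1.05 (1.02 to 1.09), and Ms4a6c at 857 and 1093 CPM. After thinning, 77.8% of null-labelled and 82.2% of control-labelled monocytes held a Ly6c2 UMI, a difference of -4.41 percentage points (-14.4 to 4.05), against 86 of 99 and 513 of 574 cells unthinned and 6.00% and 6.76% of thinned B cells. Without the members of 5% or more neutrophil UMIs, the difference was -10.6 points (-21.1 to -1.47). The higher members were Ms4a4c, Thbs1, Ly6a, Plac8, at 4537 and 2062 CPM, and Hp, haptoglobin, at 2650.5 and 822 CPM, and the lower ones Fn1, Lyz2 and Mmp8, neutrophil collagenase. Chil3, a chitinase-like protein, was at 1385 and 2448 CPM and passed 2-fold lower only in the narrowed set, with a ratio of 0.294. Ly6a, the stem cell antigen Sca-1, had 387 UMIs in 58 null-labelled against 6 UMIs in the control-labelled cells. Among transcription factors of the lineage 4 of 15 were higher and 3 lower: Maf was at 216 and 12.8 CPM, 16.9-fold higher (13.1 to 22.2), and Id2 5.12-fold higher (4.70 to 5.59), while Cebpd was at 36.4 and 178 CPM, 4.88-fold lower (3.83 to 6.32). The lineage factors Spi1, Cebpa and Irf8 stayed within 2-fold, Spi1 at 530.0 and 356 CPM and Irf8 at 383 and 461 CPM. In the Ms4a family 2 of 6 were higher and 2 lower, with Ms4a6d at 288 and 36.8 CPM and Ms4a8a at 14.5 and 61.6 CPM.

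**Figure D4:**
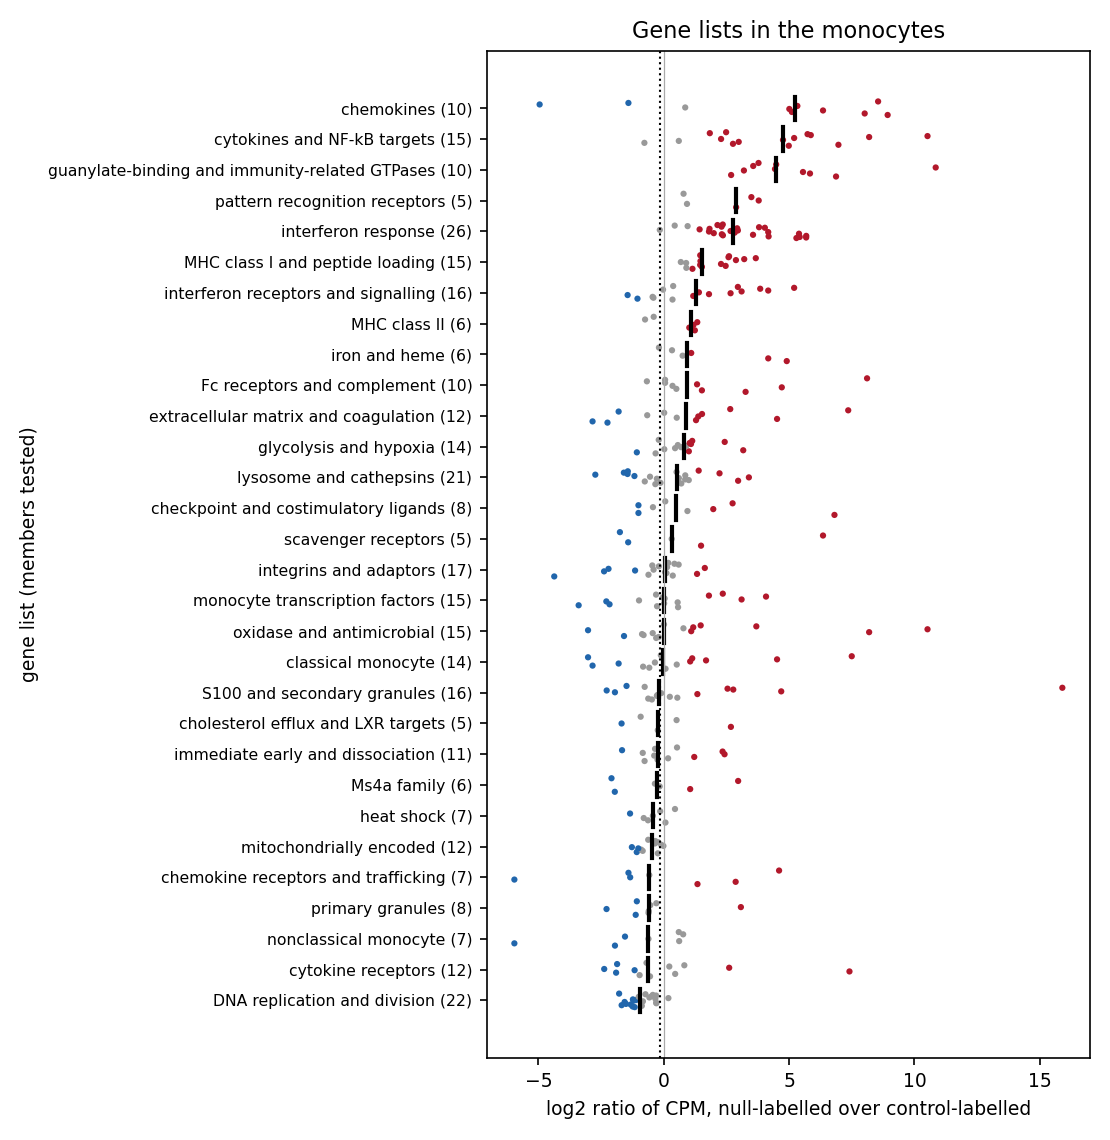
Log2 ratio of CPM, null-labelled over control-labelled, for the tested members (points) of each gene list with 5 or more tested, ordered by the list median (black bar), with points at 2-fold or more in red (higher) and blue (lower) and the median of all genes tested, -0.16, as the dotted line. Chemokines (5.22), cytokines and NF-kB targets (4.76) and the guanylate-binding list (4.46) have the highest medians and DNA replication and division (-0.93) the lowest, and Saa3 is the point furthest to the right.

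Granule and effector genes were mixed. In the list of S100 and secondary granule genes 5 of 16 were higher and 3 lower, beside 13% and 15.1% of all genes. Saa3, described above with the acute-phase genes, is counted among the higher members of this list. Several genes of the list moved when the members were narrowed. Ngp had a ratio of 2.54 in all members and 0.719 in the narrowed set, and S100a8 of 1.46 and 2.22. Retnlg had 0.207 and 0.0176, and Ltf 0.260 and 0.0607. Ngp, S100a8, Retnlg and Ltf are among the 7 neutrophil genes that the narrowed set was cut on, so their narrowed ratios are a description only. One null-labelled cell held 99.3% of the Retnlg UMIs. In the primary granule list 1 of 8 was higher and 3 lower, beside 13% and 15.1% of all genes. The lower ones were Prtn3, Ctsg and the hexokinase Hk3, with Ctsg, cathepsin G, at 73.8 and 358 CPM. The rule caps Prtn3 and Ctsg, with Mpo and Elane, at under 1% of UMIs, so their part in this count is a description only. The higher member of the list, Srgn, the proteoglycan core of granules, was in every null-labelled cell. It was at 1707 and 202 CPM, 8.45-fold higher (7.89 to 9.06). In the oxidase and antimicrobial list 6 of 15 were higher and 2 lower. The higher ones included Slfn4, at 86.3 and 6.66 CPM, and 21.9-fold in the narrowed set, while genes of the phagocyte oxidase itself were within 2-fold except Ncf1, at 54.0 and 162 CPM, a ratio of 0.334, with Cyba at 1360.3 and 1566 CPM and Cybb at 785 and 967 CPM. Of 21 lysosomal genes 4 were higher, such as Cd63 at 174 and 16.5 CPM, 22.7-fold in the narrowed set, and Ctsl, cathepsin L, at 285 and 36.4 CPM, and 5 were lower, such as Psap at 907 and 2036 CPM and the hexosaminidase Hexa at 39.0 and 258 CPM, 6.62-fold lower (5.25 to 8.47).

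Adhesion and matrix genes, the neighbourhood of integrin β3, were counted next. Of 17 tested integrins and adaptors, 2 were 2-fold higher and 4 lower, beside 13% and 15.1% of all genes. The higher ones were Itgam, the αM chain, at 374 and 149 CPM, and Zyx, zyxin of focal adhesions, at 705 and 226 CPM. The lower ones were Itga1, a collagen-binding chain, at 5.20 and 107 CPM, 20.6-fold lower (11.1 to 43.2), Itgb7 at 64.4 and 335 CPM, 5.20-fold lower (4.33 to 6.29), vinculin, Vcl, at 18.2 and 83.6 CPM, and talin, Tln1, which activates integrins, at 274 and 604 CPM. The β1 and β2 chains were nearly equal, Itgb1 at 131 and 121 CPM and Itgb2 at 221 and 213 CPM. In the matrix and coagulation list 6 of 12 were higher and 3 lower. Mmp14, a membrane metalloproteinase, had 234 against 4 UMIs, 164-fold higher (63.3 to 608), and Thbs1, thrombospondin 1, was at 399.6 and 17.4 CPM, 22.97-fold higher (18.5 to 28.8), in 40 of 99 cells.

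Lipid genes were sparse in these cells, with 5 of 13 of the cholesterol efflux list tested, of which 1 was higher and 1 lower, and 2 of 17 of the synthesis list, of which 0 were higher and 1, Fdps, was lower. Plin2, which coats lipid droplets, was at 947 and 148 CPM, 6.41-fold higher (5.90 to 6.98), and Lpl, lipoprotein lipase, at 23.9 and 76.6 CPM, 3.20-fold lower (2.36 to 4.45). Of 5 scavenger receptors 2 were higher and 2 lower. Msr1, which takes up modified lipoproteins, was at 129 and 46.1 CPM, 2.81-fold higher (2.35 to 3.36), Cxcl16 had 204 against 7 UMIs, and Trem2 was at 20.8 and 69.8 CPM, 3.36-fold lower (2.42 to 4.77). Of 14 glycolysis and hypoxia genes 6 were higher and 1 lower, with Hif1a, the hypoxia-inducible factor, at 249 and 46.1 CPM, 5.40-fold higher (4.63 to 6.32), and Pfkfb3 9.02-fold higher (6.22 to 13.3), whereas Gapdh was at 2226 and 1625 CPM, 1.37-fold.

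Of 22 tested division genes 0 were 2-fold higher and 10 lower, beside 13% and 15.1% of all genes, with a median log2 ratio of -0.93. Stmn1, a microtubule regulator, was at 247 and 847 CPM, 3.43-fold lower (3.12 to 3.78), and Mcm5, of the replicative helicase, at 37.4 and 119.7 CPM, 3.20-fold lower (2.51 to 4.14). Top2a was detected in 14.1% of thinned null-labelled (7.95 to 22.6) and 29.6% of control-labelled monocytes (25.9 to 33.6). In the narrowed set 13 of 22 were lower. Thinned B cells of the same libraries held it in 10.6% and 21.5% of cells. Of 11 immediate early genes, which handling of cells can induce, 3 were higher and 1 lower, with Fos at 240.1 and 407 CPM and Dusp1 at 395 and 77.5 CPM. Heat shock genes had 0 of 7 higher and 1 lower, and of 12 mitochondrially encoded genes 0 were higher and 3 lower, beside 15.1% of all genes lower, at a median share of 2.82% and 3.96% mitochondrial UMIs per cell.

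Within each library the members fell into subsets that differed in makeup. Null-labelled cluster 1 (48 cells) was led by Apoe, Cxcl2, H2-Ab1, Rsad2, Hmox1 and Il1b and had the highest Saa3, Fth1 and Acod1, the last at 442 CPM. Null-labelled cluster 4 (13 cells) was led by Spp1 and by the primary granule genes Prtn3, Ctsg and Mpo, with Saa3 still at 14964 CPM. Among control-labelled cells, cluster 1 (172 cells) was led by Slfn5, Vcan and Fn1, cluster 2 (150 cells) by histone genes and Top2a, cluster 4 (59 cells) by the replication genes Ung and Mcm3 and cluster 5 (46 cells) by the mitotic genes Cdc20 and Ccnb2. Cluster 9 (10 cells) was led by class II genes and Cd209a. In the dendritic-like list only Ifi205 and Cst3 reached the level for comparison, Ifi205 30.1-fold higher (21.4 to 43.6) and Cst3 2.70-fold lower (2.57 to 2.84). Control-labelled cluster 8 (15 cells) was led by Fabp4, Ace and Eno3 and held Ace at 669.7 CPM and Ly6c2 at 95.7 CPM, and is called nonclassical-like from these markers. No null-labelled monocyte held an Ace or Treml4 UMI, 0 of 99, which by a limit of 3 counts allows a share of cells with a UMI of up to 3.03% (exact upper bound 3.66%), against 30 and 37 of 574 control-labelled monocytes, or 3.88% and 2.65% of thinned cells, and 0% and 0.155% of thinned control-labelled B cells. Of the transcripts the rule counts, cluster 8 held F13a1 at 0, Ccr2 at 383 CPM and Csf1r at 1363 CPM. Cells with an Ace UMI also lay in control-labelled cluster 3 (73 cells), led by Apoe, Tppp3, Slfn5 and Gngt2, where 14 cells held one, at 69.9 CPM, against 12 cells of cluster 8, and where Ly6c2 was at 1518 CPM. Over the nonclassical list 0 of 7 tested members were 2-fold higher and 3 lower, among them Spn at 32.2 and 124 CPM. Because each cluster was formed within 1 library, its size cannot be compared with that of a cluster in the other.

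The ratios were set beside those in C1q-positive macrophages (23 and 42 cells), primary granule progenitors (37 and 301), neutrophils (596 and 2537) and B cells (570 and 1879) of the same libraries. None of these differences between populations was tested, since there are no replicates. These populations were also chosen by counts, neutrophils with a limit of 2% of UMIs from neutrophil genes and B cells with 3 or more Cd79 UMIs. The B cells held 0 UMIs of Csf1r, F13a1 and Ccr2. The part of these limits and of depth in the ratios was not tested. Cxcl10 and Gbp2 were higher in each population. Cxcl10, 259-fold higher in monocytes, was 324-fold higher in macrophages, 427-fold in progenitors and 299-fold in neutrophils, with intervals that overlap that of monocytes, and 1607-fold in B cells (549 to 7798), with 3 control-labelled UMIs behind each of the macrophage and B cell values. Saa3 was also present in other null-labelled cells, at 32079 CPM in macrophages, 2566 in progenitors, 1419 in neutrophils and 246 in B cells. Its level in monocytes was thus second to that in macrophages. In B cells Saa3 was detected in 53 of 570, and 1 cell held 245 of its UMIs. Fth1 was 18.0-fold higher in monocytes, 5.29-fold in macrophages (5.04 to 5.56), 3.16-fold in progenitors and 2.97-fold in neutrophils, with a ratio of 0.843 in B cells. Hmox1, 30.03-fold higher in monocytes, had ratios of 1.32 in macrophages, 2.55 in neutrophils and 0.285 in B cells.

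**Figure D5:**
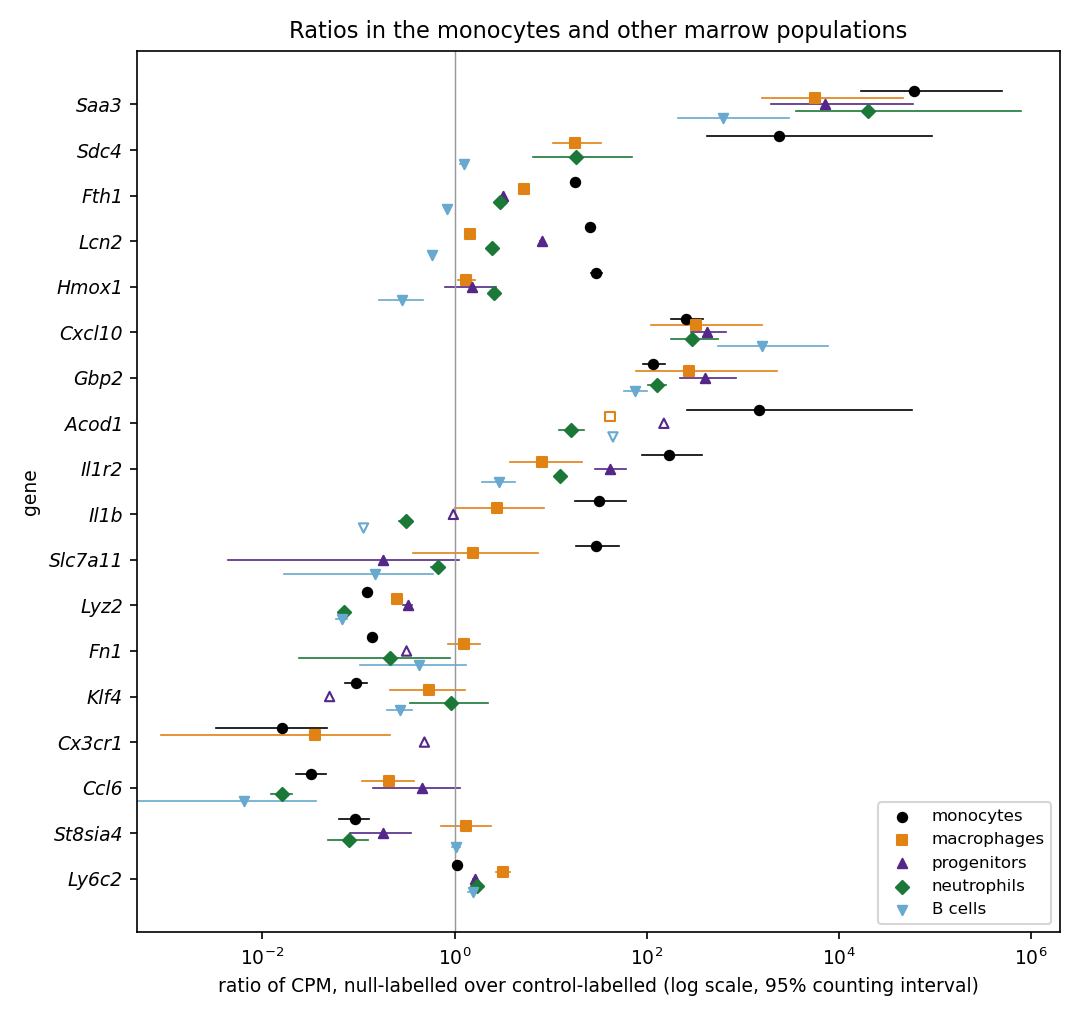
Ratio of CPM, null-labelled over control-labelled, of 18 genes in monocytes and 4 other populations (symbols), on a log axis with 95% counting intervals as lines and open symbols where 1 library had 0 UMIs and a floor of 3 UMIs was used. Cxcl10 and Gbp2 are far above 1 in every population. Hmox1 and Slc7a11 are at 30.03 and 29.6 in monocytes and at most 2.55 and 1.54 in the others. Lyz2 is below 1 in all 5, in B cells with the limit given in the text.

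The genes whose log2 ratio in monocytes stood furthest above that in all other cells were Sdc4, Il1b, Cd38, Tgm2, Mt2, AA467197, Slc7a11 and Mmp14. Sdc4 had a log2 ratio of 1.46 in the other cells, where B cells held it at 206 and 166 CPM in the null-labelled and control-labelled library, and was also 17.9-fold higher in macrophages. Slc7a11, the cystine transporter, was 29.6-fold higher (18.3 to 51.1) in monocytes, with a ratio of 0.666 in neutrophils (0.571 to 0.775). Il1b had a ratio of 31.8 in monocytes (18.0 to 61.1) and of 0.309 in neutrophils (0.265 to 0.359). Cd38, an NAD-degrading surface enzyme, was 95.5-fold higher (54.1 to 186) in monocytes, 201-fold in the narrowed set, and 21.0-fold higher in macrophages and 21.4-fold in neutrophils, while in B cells its ratio was 0.561.

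Furthest below the other cells stood AI839979, Ppfia4, Stxbp6, Cx3cr1, Klrb1f, Pdlim1, St8sia4 and Ppp1r21. St8sia4, which adds polysialic acid to surface proteins, was 10.9-fold lower (7.78 to 15.9) in monocytes, and its ratio was 0.0799 in neutrophils and 1.03 in B cells. Pdlim1, an actin-associated protein, was 9.97-fold lower (6.24 to 17.0), against a log2 ratio of -0.05 in the other cells. Lyz2 was also lower elsewhere, with ratios of 0.0710 in neutrophils, 0.251 in macrophages, 0.327 in progenitors and 0.0668 in B cells. It was detected in 22 of 570 null-labelled and 382 of 1879 control-labelled B cells. The neutrophil gene S100a9 was detected in 60.4% and 75.5% of them, so B cell barcodes also held transcripts of myeloid cells. The part of such transcripts in the B cell ratio was not tested. Fn1, by contrast with its 7.15-fold lower level in monocytes, was at 192 and 153 CPM in macrophages, a ratio of 1.26 (0.864 to 1.84). Ly6c2, nearly equal in monocytes, was 3.20-fold higher in null-labelled macrophages and 1.65-fold higher in progenitors.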

How the data were processed

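Per the file headers and their values, the deposited matrices hold raw UMI counts per gene and barcode (software version 3.1.0), with Cell Ranger 3.0, Seurat and the mm10 build listed in the submitters' processing notes. From these counts, barcodes were filtered and members chosen as stated above in Python 3.11.15 (scipy 1.17.1, pandas 2.3.3), with no doublet removal in the main values, since none is recorded in the sources used here. UMIs were summed over cells per library, and each CPM ratio has a 95% interval from the exact binomial split of its UMIs. Ratios with 0 UMIs in 1 library use a floor of 3 UMIs over that library's monocytes. Shares of cells carry exact Clopper-Pearson intervals, after thinning to 2000 UMIs where stated, which left out 7 shallower control-labelled monocytes, 592 of 1879 control-labelled B cells and 3 of 570 null-labelled B cells. Members were clustered within each library with scanpy 1.11.5 (log-normalised to 10000 UMIs, 1000 variable genes, 15 components, 10 neighbours, resolution 0.5). Of 31053 listed gene IDs, 99.6% matched a GENCODE annotation of the mm10 assembly, from which gene coordinates were taken, and promoters came from RefSeq.

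The 15 highest and 15 lowest ratios by the interval bound nearest 1, the 2 most abundant and 2 most different members per direction of each of 32 gene lists, and 8 genes per direction against the other cells were chosen for naming. Chil3, Cybb, Hp, Irf8, Isg15, Itgb1, Itgb2, Ngp, Slfn4, Spi1 and Vcl were named after their values were seen. The members and lists were chosen with earlier results of these data known. The ratio and interval computation was tested on simulated counts. Alternatives covered the filters, doublet calls, the membership rule, depth, thinning and TMM scaling (edgeR 4.0.16). Some items are not reported here.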

Additional observations from a re-analysis of the deposited data

How the results depend on the processing

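No paired analysis was possible because each genotype had 1 library. For the same reason no replicate could be left out, and depth and genotype cannot be told apart over the 2 libraries. The share of monocytes, null-labelled over control-labelled, was 0.538 in the report, 0.139 with barcodes thinned to 2000 UMIs before the rule, 0.407 with 6 or more UMIs of the 3 genes required, and 0.144 with only members of 3000 to 10000 UMIs counted over all cells. With the cells limited to that depth too, an alternative chosen after seeing the data, it was 0.149. The cause of these shifts was not tested. The interferon-response median log2 ratio was 3.07 under the thinned rule and 2.42 among members of 3000 to 10000 UMIs, where only 16 null-labelled cells remained. In the latter, the difference in cells with a Ly6c2 UMI was -15.7 percentage points (-43.3 to 4.99). With no CPM minimum, 940 genes were 2-fold higher and 1843 lower, since 9331 genes were then compared. Scrublet removed 7 null-labelled and 37 control-labelled members.

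Of 180 named genes, 132 were 2-fold different, and of their 1428 values under the alternatives 59, in 30 genes, came within 2-fold. Direction changed for Ms4a4b (log2 ratio 0.19) under the thinned rule, for Ngp there (-3.48), without members of 5% or more neutrophil UMIs (-0.45) and in the narrowed set (-0.48), for Ltf (1.34) without Scrublet doublets, and among members of 3000 to 10000 UMIs for H2-Ab1 (-0.29), Spn (0.048), Retnlg (1.52) and Fdps (0.019). Of the 31 gene lists other than interferon response, 8 had a median past 2-fold, and 9 of their 88 alternative values, in 4 lists, came within 2-fold. No list median past 2-fold changed direction under the alternatives run. The remaining values of the share, the gene counts, the interferon median and the Ly6c2 difference stayed within 1.5 times or within their intervals.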
